A study of Drosophila melanogaster with 2 samples.

Results

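Genes that hold 5 or more binding summits of the tagged T-box protein org-1 between their start and end are described here. A summit is the position of highest signal within a called region, as the authors deposited it. Protein-coding genes of the main chromosome arms were chosen by the number of summits of the deposited optimal region list in genome build dm6, with no window added around the gene. The rule was met by 97 of 13945 genes (0.696%), called multi-summit genes in what follows, whereas 1622 genes (11.6%) held at least 1 summit. These counts are the selection itself. Summit number, gene length, spacing and the position of summits are therefore given as descriptions with no test.

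Chromatin immunoprecipitation and sequencing was done on whole embryos of Drosophila melanogaster, of mixed sex and 2 to 24 hours old. All embryos carried a transgene of org-1 with green fluorescent protein fused at its C-terminal end, and both libraries, biological replicates 1 and 2, belong to this 1 group. The description in the labels names an anti-GFP antibody and the antibody field names org-1. The age field of the labels holds a value that is no embryo age, and the hours are those of the sample source. Whole organisms were pooled, so the cell types that contributed a summit cannot be told apart, and no control sample was analysed here. Read depth is unknown, because the lists give regions and signal values but no read counts. Candidate lists of 30000 regions exist for either replicate and for both combined. The optimal list, thresholded by the authors on the irreproducible discovery rate, held 4434 summits in 4409 regions.

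T-box factors bind DNA through a conserved domain and regulate transcription from promoters and from enhancers. In flies, enhancers of developmental genes often lie in long introns, and several of them can serve 1 gene in different tissues. The org-1 protein, related to vertebrate Tbx1, acts in founder cells of somatic and visceral muscles.

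The sequence at the strongest intronic summit is shown for the 8 of the 12 genes with the most summits that lie on 2L, 3R or X, as examples of the windows whose base composition is given further on. They are not typical of every summit, since the 641 windows ran from 13.9% to 68.3% GC. Each window is 101 bp from the release 6 genome (dm6), centred on the summit, on the plus strand and 5′ to 3′, with runs of 6 or more A or T in capitals. The windows lie at chrX:3097145-3097245 in kirre, chrX:7324972-7325072 in CG1677, chr2L:481015-481115 in ush, chrX:3742182-3742282 in Tlk, chrX:2297665-2297765 in Raf, chr2L:12497793-12497893 in bun, chrX:7706888-7706988 in CHES-1-like and chr3R:14012702-14012802 in rdx.
kirre: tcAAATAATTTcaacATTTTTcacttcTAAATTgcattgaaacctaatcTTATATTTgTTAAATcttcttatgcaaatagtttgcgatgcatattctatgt
CG1677: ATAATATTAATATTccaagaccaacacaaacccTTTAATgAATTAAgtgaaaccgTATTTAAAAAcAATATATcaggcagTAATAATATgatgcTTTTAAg
ush: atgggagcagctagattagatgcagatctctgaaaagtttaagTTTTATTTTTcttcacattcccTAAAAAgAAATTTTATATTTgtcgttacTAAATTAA
Tlk: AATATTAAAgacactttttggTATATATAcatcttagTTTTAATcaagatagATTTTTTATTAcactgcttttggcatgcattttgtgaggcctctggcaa
Raf: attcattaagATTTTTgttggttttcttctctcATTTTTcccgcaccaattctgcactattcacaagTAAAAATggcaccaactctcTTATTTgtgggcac
bun: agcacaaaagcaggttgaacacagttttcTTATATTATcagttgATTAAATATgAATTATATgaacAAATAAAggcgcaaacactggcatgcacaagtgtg
CHES-1-like: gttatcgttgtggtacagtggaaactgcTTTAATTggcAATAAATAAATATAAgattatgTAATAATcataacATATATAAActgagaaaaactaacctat
rdx: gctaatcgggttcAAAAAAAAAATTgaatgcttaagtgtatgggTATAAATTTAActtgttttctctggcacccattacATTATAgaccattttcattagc
The GC content of these windows ran from 24.8% in kirre to 36.6% in Raf. In the other 4 genes, whose windows are not shown, the strongest intronic summit of sbb held 40.6%, beside 26.7% in shn, 34.7% in tou and 35.6% in px. In the 8 printed windows the longest unbroken run of A or T measured from 7 bases in Raf to 15 in CHES-1-like.

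Equally wide windows placed 400 bp before and after the strongest ush and Tlk summits show the flanking sequence. They lie at chr2L:480615-480715 and chr2L:481415-481515 around the ush summit and at chrX:3741782-3741882 and chrX:3742582-3742682 around the Tlk summit.
ush, before the summit: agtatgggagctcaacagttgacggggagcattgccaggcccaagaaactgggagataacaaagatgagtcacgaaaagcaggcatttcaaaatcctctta
ush, after the summit: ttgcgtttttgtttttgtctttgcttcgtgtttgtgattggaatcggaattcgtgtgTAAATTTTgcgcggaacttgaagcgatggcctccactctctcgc
Tlk, before the summit: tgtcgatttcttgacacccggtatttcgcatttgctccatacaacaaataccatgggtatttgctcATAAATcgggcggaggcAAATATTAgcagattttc
Tlk, after the summit: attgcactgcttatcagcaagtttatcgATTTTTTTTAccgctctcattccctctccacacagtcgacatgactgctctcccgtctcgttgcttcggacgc
At ush the summit window held 27.7% GC, against 46.5% before it and 44.6% after it. At Tlk the summit window held 29.7% GC, against 41.6% and 48.5% in the flanks.

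Multi-summit genes were long genes. Their median length was 53.3 kb (quartiles 34.9 and 94.3 kb, range 10.8 to 394 kb), against 11.1 kb for the 1525 genes with 1 to 4 summits, 1.92 kb for the 12323 genes with none and 2.17 kb for all protein-coding genes. A longer gene has more room for summits, so length is tied to the rule. Exons covered a median of 15.3% of a multi-summit gene, against 85.7% over all genes, and these genes had a median of 3 annotated transcript starts, against 1. Just inside the rule, the 36 genes with exactly 5 summits had a median length of 45.8 kb (12.2 to 171 kb) and a median strongest signal of 270.1. Just outside it, the 98 genes with exactly 4 had a median length of 28.8 kb (5.90 to 132 kb) and a median strongest signal of 296. The length ranges overlapped over most of their extent, and so did the ranges of the strongest signal, 138 to 1280 with 5 summits and 137 to 1601 with 4.

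No gene under 10 kb was a multi-summit gene (0 of 10461 under 5 kb and 0 of 1507 of 5 to 10 kb), and above that the share was higher in each longer class of length. It was 10 of 964 genes (1.04%) of 10 to 20 kb, 21 of 552 (3.80%) of 20 to 40 kb and 34 of 328 (10.4%) of 40 to 80 kb. In genes of 80 to 160 kb it was 23 of 112 (20.5%), and in the 21 genes of 160 kb or more it was 9 (42.9%). Density ran the other way above 10 kb. All genes of 10 to 20 kb together held 0.491 summits per 10 kb, those of 40 to 80 kb held 0.320, those of 80 to 160 kb held 0.218 and those of 160 kb or more held 0.0967. The last class includes Myo81F (1966 kb), Pzl (709 kb), lovit (434 kb), CG17684 (396 kb) and DIP-lambda (379 kb). These 5 genes held no summit and at most 1 region each in the candidate list of both replicates combined. The density of this class without them was not calculated.

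Among the 97 genes themselves, number followed length weakly. Spearman's rho of summit number with gene length was 0.205 over the multi-summit genes (n = 97), against 0.495 over all genes with a summit (n = 1622) and 0.407 over all 13945. These are descriptions over genes that share the same 2 libraries, and the first covers a range cut off by the rule. Summits per 10 kb had a median of 1.25 (0.206 to 5.58) and fell with length (rho = -0.892, n = 97); length is the denominator of the density. The 93 separate stretches of genome covered by these genes made up 6.69 Mb, or 4.99% of the arms, and held 641 of the 4434 summits (14.5%). That is 0.959 summits per 10 kb, against 0.266 in genes outside them and 0.331 over the arms.

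**Figure D1:**
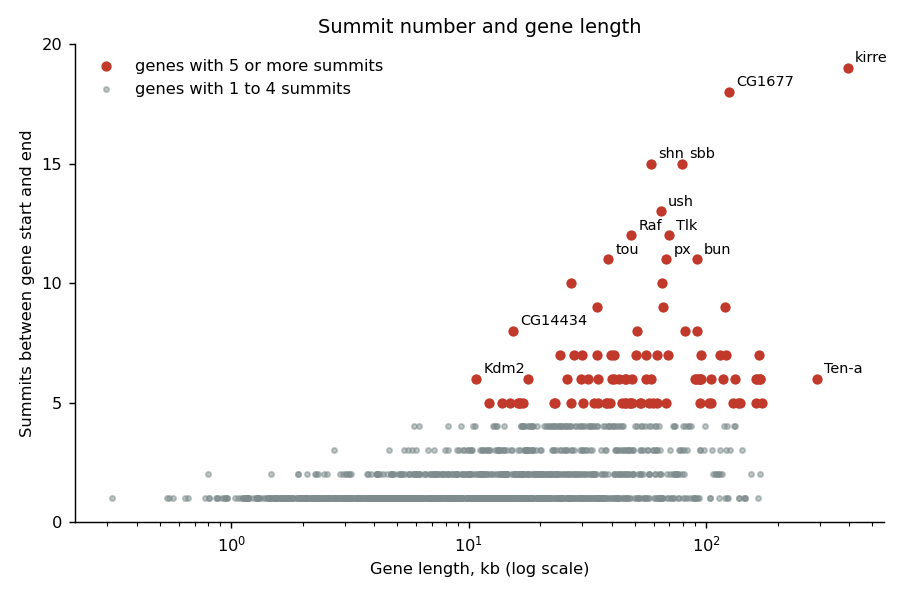
Number of summits between gene start and end against gene length in kb (log scale). Each red point is 1 of the 97 genes with 5 or more summits and each grey point 1 of the 1525 genes with 1 to 4; named red points show that kirre (19 summits, 394 kb), Kdm2 (6 summits, 10.8 kb) and Ten-a (6 summits, 292 kb) lie far apart in length.

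Of the 97 genes, 12 held 10 or more summits, 33 held 7 or more, 28 held exactly 6 and 36 exactly 5. Only 4 of the 12, kirre, ush, Tlk and bun, were in the function lists given further on. Genes can overlap, so 21 summits were counted for a pair of genes each, and 8 genes overlapped another gene of the set. Those pairs were rg with CG15465, sky with CG43739, Antp with CG46458 and CG5445 with Fim.

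The gene with the most summits was kirre (FBgn0028369), which encodes an immunoglobulin-domain receptor of founder myoblasts needed for myoblast fusion. It held 19 summits in 394 kb on the X (2740384 to 3134532, plus strand), 14 of them in introns. The strongest, 357 kb from its 5′ end, had a signal of 509, with 210 in replicate 1 and 297 in replicate 2. The second, 3.85 kb from the 5′ end, had 478, with 260 in replicate 1 and 212 in replicate 2, and lay 161 bp from the start of Syx4. Another pair lay near 47 kb, with signals of 411 and 226. The other summits had signals of 101 to 224, so that most of the 19 were weak, and 11 of the 19 lay in regions strong in both replicates. Here a region is called strong in a replicate if it overlaps, by 1 bp or more, 1 of the 4434 candidate regions with the highest signal of that replicate. The kirre gene contains 21 other genes, and 8 of its 19 summits had a start of kirre itself as the nearest start.

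A gene without a name, CG1677 (FBgn0029941), held 18 summits in 125 kb on the X (7281089 to 7405797, minus strand). It contains 13 other genes, among them brk, which encodes a repressor of BMP target genes, and unc-119. The nearest start belonged to another gene for 17 of its 18 summits. All 18 lay within the second intron of its longest transcript, between 67.1 and 120 kb from the 5′ end. The strongest had a signal of 881, with 465 in replicate 1 and 414 in replicate 2, and lay 288 bp from the start of CBP. A cluster near brk included summits of 470 (394 in replicate 1 and 75.1 in replicate 2) and 217 (185 and 75.1), 758 and 548 bp from the brk start. Most summits counted for CG1677 therefore lie nearer to the start of an enclosed gene than to its own.

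Zinc finger genes and other regulators of transcription followed. The BMP pathway factor gene shn (FBgn0003396) held 15 summits in 58.3 kb, all 15 nearest to its own starts, and 13 of them were strong in both replicates. Its strongest, 25.4 kb from the 5′ end, had 497, with 280 in replicate 1 and 214 in replicate 2. The corepressor gene sbb (FBgn0285917) held 15 in 79.1 kb, the strongest with 1064, from 548 in replicate 1 and 519 in replicate 2. In sbb 14 of the 15 lay in the second intron, which is 65.6 kb long.

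The GATA cofactor gene ush (FBgn0003963) held 13 summits in 64.3 kb on 2L (476220 to 540560, plus strand) and the strongest summit of the whole set. That summit, 4.84 kb from the 5′ end, had a signal of 2524, with 1360 in replicate 1 and 1167 in replicate 2. Its nearest start, 1377 bp away, was that of cbt, a gene inside ush. A neighbour at 3.86 kb had 950, with 462 in replicate 1 and 486 in replicate 2, and lay 390 bp from the cbt start. Of the 13 summits, 10 were nearest to a start of ush itself. The other 11 had signals of 102 to 551 and ran to 54.2 kb. In all, 11 of the 13 were strong in both replicates.

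Genes of signal transduction included Tlk (FBgn0283657), for a Tousled-like kinase, and Raf (FBgn0003079), for the kinase that couples Ras to the MAP kinase cascade. Tlk held 12 summits in 69.8 kb, all in its second intron and all nearest to its own starts, with the strongest at 1383 (725 in replicate 1 and 652 in replicate 2). Raf held 12 in 48.4 kb, of which 9 lay within 11.1 kb of the 5′ end. The strongest Raf summit had 1063 (455 in replicate 1 and 607 in replicate 2), and 3 others exceeded 500 with 804, 611 and 776. In Raf 11 of the 12 were strong in both replicates.

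The other genes with 10 or more were px, tou, bun, CHES-1-like and rdx. The wing vein gene px held 11, and its strongest, 196 bp from a px start, had 2356 (995 in replicate 1 and 1359 in replicate 2) while none of the other 10 exceeded 273. The chromatin gene tou held 11 in its first intron of 23.4 kb, with the strongest at 492 (277 in replicate 1 and 211 in replicate 2). In bun, a TSC22 family gene, the 11 summits were spread over 88.6% of the gene, with the strongest at 377 (213 in replicate 1 and 165 in replicate 2). The forkhead gene CHES-1-like held 10 in 27.0 kb with a more even signal, from 155 to 630, the strongest having 378 in replicate 1 and 255 in replicate 2. In rdx, which encodes a substrate adaptor of a ubiquitin ligase, the strongest of 10 had 623 (283 in replicate 1 and 326 in replicate 2) and lay at a start of rdx.

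**Figure D2:**
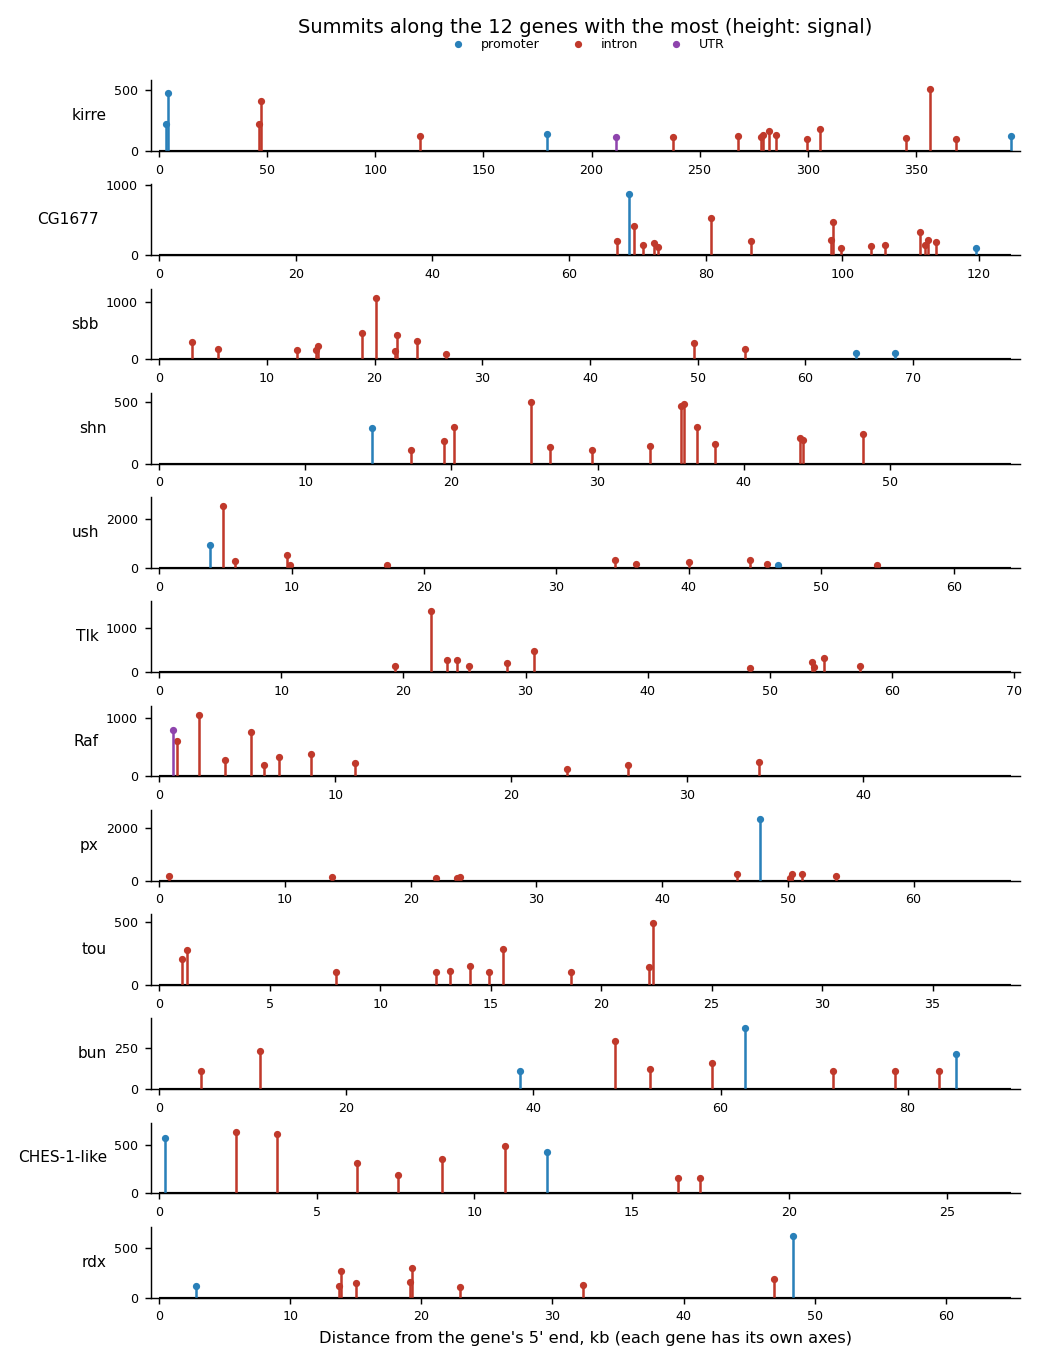
Summits along the 12 genes with 10 or more, by distance from the 5′ end of the gene in kb, with the signal value as height; each gene has its own axes, and colours mark promoters (within 500 bp of a start), introns and UTRs. Most summits are intronic, and in ush, Tlk and px 1 summit (2524, 1383 and 2356) stands above the others.

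Short and dense genes formed the other end of the set. The histone demethylase gene Kdm2 held 6 summits in 10.8 kb (5.58 per 10 kb), all within 5.07 kb of its 5′ end, and its strongest had 603 (492 in replicate 1 and 141 in replicate 2). The next by density were CG14434 with 8 summits in 15.3 kb (5.23 per 10 kb), ph-p with 5 in 12.2 kb (4.11), CHES-1-like with 3.70 and Socs36E with 5 in 13.7 kb (3.64). The Polycomb group gene ph-p had its strongest at 1280 (645 in replicate 1 and 673 in replicate 2) and another of 885 (667 in replicate 1 and 248 in replicate 2), both at its own starts. Also among the 5 shortest genes, CG42258 held 5 in 14.9 kb, with the strongest at 450 (323 in replicate 1 and 127 in replicate 2). Socs36E encodes an inhibitor of the JAK/STAT pathway, and its strongest summit had 319 (181 in replicate 1 and 132 in replicate 2). At the other extreme the teneurin gene Ten-a held 6 summits in 292 kb, which is 0.206 per 10 kb, and the translational repressor gene pum held 5 in 171 kb.

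Neighbouring summits inside these genes lay close together. The median distance between neighbours was 3082 bp (quartiles 1304 and 8219 bp, range 199 to 128548 bp, 548 distances), against 9980 bp for all neighbouring summits of the optimal list (4428 distances). Distances under 2 kb made up 38.0% in the multi-summit genes, against 20.3% overall. The rule picks places with many summits, so a shorter distance is part of the selection. In 92 of the 97 genes the median distance was below the even distance, that is, gene length divided by summit number. The ratio of these distances had a median of 0.492 (0.0476 to 1.22). Points placed at random would also give a median below the even distance, so no departure from random placement is read from this. The largest empty stretch between neighbours covered a median of 26.3% of the gene (2.37% to 72.5%), and the first and last summit were a median of 57.8% of the gene apart (7.07% to 99.2%).

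The smallest span was that of mbl, which encodes the splicing regulator Muscleblind. Its 6 summits in 163 kb lay between 46.2 and 57.7 kb from the 5′ end, over 7.07% of the gene. The strongest, with 418 (238 in replicate 1 and 178 in replicate 2), lay at an internal start of mbl. In kirre, by contrast, the summits spanned 99.2% of the gene.

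The closest pairs belonged to called regions that mostly overlapped. Of the 548 distances, 55 (10.04%) were below 250 bp and 5 were from 250 to below 500 bp, against 291 (6.57%) and 27 over all neighbouring summits. In 53 of the 55 pairs the called regions overlapped, in 6 both summits lay in 1 region, and the smallest distance was 199 bp. Such a pair occurred in 47 of the 97 genes. Both summits of a pair can overlap the same candidate region of a replicate, as at ush, where the summits of 551 and 115 share the values 211 in replicate 1 and 338 in replicate 2. With summits of a gene less than 500 bp apart counted once, 83 of the 97 genes kept 5 or more.

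**Figure D3:**
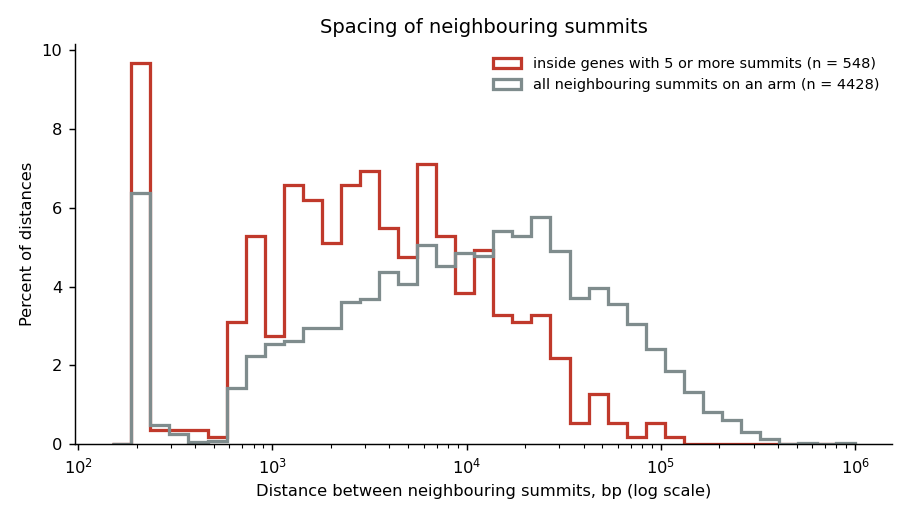
Distances in bp (log scale) between neighbouring summits, as percent of distances, inside the multi-summit genes (red, n = 548) and over the whole optimal list (grey, n = 4428). The red curve lies further left (median 3082 bp against 9980 bp), and both have a separate group below 250 bp.

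Summits of multi-summit genes were mostly intronic. Introns held 549 of 641 (85.6%), against 61.4% of the 2215 summits in other genes. Promoters, taken as 500 bp to either side of a protein-coding transcript start, held 84 (13.1%, exact binomial 95% interval 10.6 to 15.97%), against 36.1% of those in other genes. With the multi-summit genes taken from the strongest regions of replicate 2 alone the promoter share was 20.6%, outside this interval, and from those of replicate 1 alone 13.1%. UTRs held 8 and coding exons none, against 49 and 6 in other genes. The median distance to the nearest start was 3442 bp in multi-summit genes, against 1024 bp in other genes. More than 10 kb from any start lay 119 summits (18.6%), against 164 (7.40%). Exons cover less of a multi-summit gene than of the median gene over all genes, as given above. The exon share of the other genes with a summit was not calculated, and the part of gene structure in these shares was not tested.

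Summits were more frequent towards the 5′ end. With each gene divided into 5 equal parts from the 5′ end, and a summit shared by a pair of genes counted for each (662 in all), the parts held 193, 149, 124, 135 and 61. The first part thus held 29.2% and the last 9.21%. The next counts take the introns of the longest transcript of each gene. Unlike the share of introns given above, they include summits within 500 bp of a start. These introns held 649 of the 662. The first intron held 224 of the 649 (34.5%) and made up 21.0% of the intron length. The longest intron held 436 (67.2%) and made up 61.0% of the intron length. In 46 genes a single intron held 5 or more, as in Tlk and tou.

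A summit inside a gene need not belong to it. Other genes lie inside 48 of the 97, and for 170 of the 662 gene and summit pairs the nearest start was that of another gene. All summits were nearest to a start of the gene itself in 42 genes, among them shn, Tlk, px and CHES-1-like. The gene itself had 5 or more such summits in 60. In 7 genes none was counted so, namely CG43739, CG46458, CG5445, Ptp61F, fra, hiw and rg. A start position shared by a pair of genes was assigned to 1 of them only. The genes rg and CG15465 have the same start and end, and a shared start was assigned to CG15465. That gene had 5 of the same 6 summits nearest to its starts. The count of none for rg depends on this assignment, since 1 of its summits lay within 500 bp of an rg start. A summit within 500 bp of an own start was found in 48 genes. Leaving out summits within 500 bp of another gene's start removed 4 genes from the set, CG43739, CG5445, hiw and stx.

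The signal of these summits was close to that of the rest of the list. It had a median of 167 in multi-summit genes (quartiles 124 and 251, range 101 to 2524, n = 641), against 164 at all other summits (124 and 256, 101 to 2560, n = 3793). Within introns the medians were 162 and 155, and within promoters 199 and 180. A signal of 500 or more was reached by 44 summits (6.86%) in multi-summit genes, against 276 (7.28%) elsewhere. The overlapping candidate regions had a median of 107 in replicate 1, against 104.3 at other summits, and of 78.4 in replicate 2, against 76.5.

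**Figure D4:**
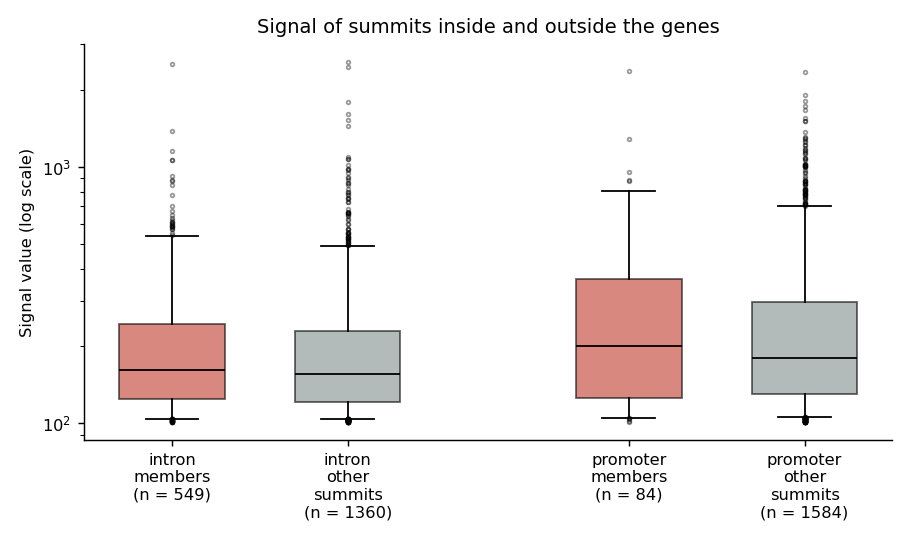
Signal value (log scale) of intronic and promoter summits in multi-summit genes (members, red) and elsewhere (other summits, grey). Boxes show quartiles and the median, whiskers the 5th and 95th percentiles and points the values beyond; the boxes overlap almost fully, with intron medians of 162 and 155 and promoter medians of 199 and 180.

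The strongest summit of each gene had a median signal of 353 (138 to 2524) and was a median of 1.94 times the median signal of the same gene (1.05 to 14.0). It lay in an intron in 79 genes, in a promoter in 17 and in a UTR in 1. Some genes held several summits of like height, and both simj and jing are named here after their values were seen. In simj 3 summits had 888, 882 and 848, with 676, 535 and 522 in replicate 1 and 230.0, 351 and 318 in replicate 2. In jing 3 had 244, 233 and 232, with 69.8, 166 and 78.5 in replicate 1 and 171, 85.4 and 151 in replicate 2. Genes with more summits had a higher strongest signal (rho = 0.467, n = 97), as the highest of more values tends to be, whereas summit number and median signal were nearly unrelated (rho = 0.0537). After ush, px, Tlk and ph-p, the highest strongest signal was that of NFAT, for a Rel-domain transcription factor, with 1147 (571 in replicate 1 and 574 in replicate 2). The lowest were 138 in luna, which encodes a Krüppel-like factor, 146 in the Wnt receptor gene fz2, 155 in CG43658, 178 in the polarity gene scrib and 184 in tkv, for a BMP type I receptor. At tkv, which had 42.1 in replicate 1 and 146 in replicate 2, none of the 5 summits was strong in both replicates.

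The replicates gave overlapping but not identical sets. Of the 641 summits in multi-summit genes, 412 (64.3%, exact binomial 95% interval 60.4 to 68.0%) lay in regions strong in both replicates, against 2317 of 3793 elsewhere (61.1%) and 61.5% of the whole list. The interval counts summits only, and summits of 1 gene are not independent. Taken alone, the 4434 strongest regions of replicate 1 put 5 or more summits in 73 of the 97 genes and those of replicate 2 in 65. Both did so in 49 genes, and neither did in 8. With the threshold lowered to 3 summits the counts were 95 in replicate 1 and 94 in replicate 2. For kirre the counts were 18 in replicate 1 and 14 in replicate 2, for ush 12 and 14, for shn 17 and 16, for px 9 and 15 and for tara 12 and 15. Counting optimal summits strong in both replicates, 33 genes had 5 or more, 85 had 3 or more and only tkv had none.

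**Figure D5:**
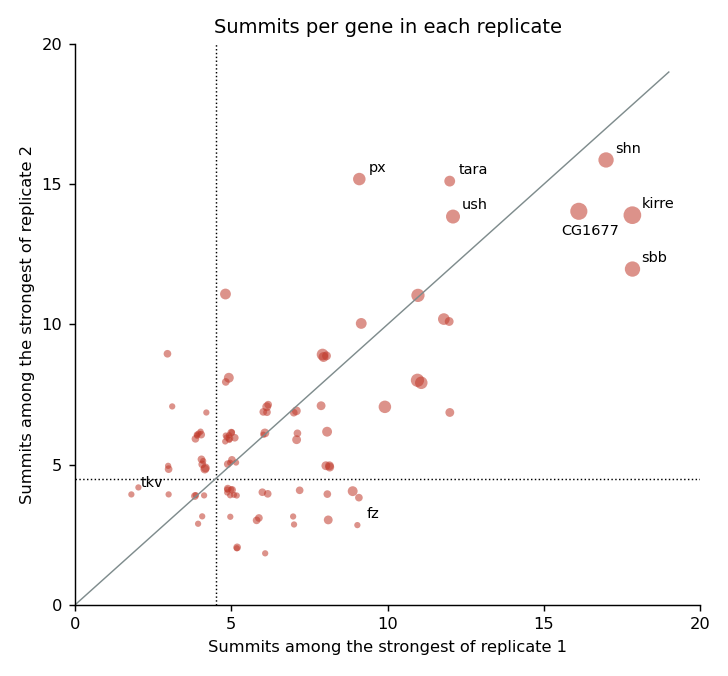
Number of summits among the 4434 strongest regions of replicate 1 (horizontal) and replicate 2 (vertical) for each of the 97 genes, with points shifted slightly at random and sized by the number of optimal summits. The grey line marks equal numbers, and dotted lines separate fewer than 5 from 5 or more: 49 genes lie above and right of both lines and 8 below and left of both.

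The base composition at these summits was close to that of other summits. The mean GC content of the 101 bp window was 34.4% in multi-summit genes (SD 8.60, n = 641 summits), against 34.7% at other summits, and 43.0% in the flanks of the same genes. The chromosome arms averaged 42.2%. The replicates differed in this respect. Within multi-summit genes, the strongest summits of replicate 1 had 32.6% GC (n = 611) and those of replicate 2 had 38.5% (n = 584), against 32.4% and 39.7% elsewhere. A run of 10 or more A or T occurred in 47.0% of summit windows in multi-summit genes, against 48.7% at other summits, 30.5% in the flanks of the multi-summit genes and 30.8% of arm windows.

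Words were searched on both strands of the same windows. The T-box core AGGTGTG was present at 4 of the 641 summits (0.624%), against 0.580% at other summits, 0.858% in the flanks and 0.808% over the arms. The word TGTTTA, part of forkhead sites, was present at 17.6%, against 8.81% in the flanks and 16.4% at other summits, with 9.25% over the arms. For TATAAA these shares were 19.97%, 9.83%, 20.1% and 11.8%. The homeodomain core TAATTA was present at 8.58%, against 6.32% in the flanks, 9.02% at other summits and 6.46% over the arms. The GATA word GATAAG was present at 5.15%, against 4.84% in the flanks, 6.14% at other summits and 4.22% over the arms. The repeat GAGAG stood at 11.5% of these summits, 10.4% of other summits, 19.2% of the flanks and 11.5% of arm windows, so that the flanks were the highest. Another repeat, CACACA, stood at 8.42%, against 8.09% at other summits, 15.1% in the flanks and 8.08% over the arms. A run of 7 A, AAAAAAA, stood at 13.3%, below the 15.1% of the flanks but above the 11.8% of other summits and the 8.67% of arm windows. Words made mostly of A and T can overlap each other and share their composition with the summits. A word is a description of these letters and not a binding site.

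Genes of each function list were among the set. Of 321 listed genes 29 were multi-summit genes (9.03%), beside 0.696% of all protein-coding genes, but the listed genes are long, with a median of 23.5 kb. Among genes of 20 kb or more, 27 of 180 listed genes (15%) were multi-summit genes, beside 87 of all 1013 (8.59%). Within this class the share still rose with length, from 3.80% at 20 to 40 kb to 42.9% at 160 kb or more. The lengths of listed and other genes within the class were not compared, here or for the single lists below. The lists were compiled with earlier results of these data known and were not tested. They do not cover every gene of the kind named, and Raf, shn and sbb, for example, are in none of them.

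Signalling genes had 10 of 62 (16.1%), and 8 of the 28 of 20 kb or more (28.6%). Besides Tlk with 12 they were dnc, for a cAMP phosphodiesterase, with 7, sick, the RhoGAP gene cv-c and fz2 with 6 each, and tkv, fz, for, puc and Dad with 5 each. Dad encodes an inhibitory Smad of the BMP pathway and held a strongest summit of 646 (400.1 in replicate 1 and 238 in replicate 2), nearest to a start of Ns1, while puc encodes a phosphatase that restrains JNK signalling. Transcription factor genes had 9 of 81 (11.1%), and 9 of the 46 of 20 kb or more (19.6%). They were ush with 13, bun with 11, Eip75B, mam and Pdp1 with 7, Mef2 and pnt with 6, and Antp and luna with 5. For mam, the Notch coactivator gene, the strongest had 541 (396 in replicate 1 and 146 in replicate 2) and was nearest to a start of CG18371. For Mef2, the muscle differentiation factor gene, all 6 within the gene were nearest to its own starts, and the strongest had 248 (119 in replicate 1 and 128 in replicate 2).

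Genes of cell adhesion and axon guidance had 6 of 51 (11.8%), and 6 of the 38 of 20 kb or more (15.8%). After kirre these were the netrin receptor genes unc-5 with 7 and fra with 6, Ten-a with 6, the semaphorin gene Sema1a with 5 and the integrin subunit gene mew with 5. The strongest was 425 in unc-5 (272 in replicate 1 and 152 in replicate 2) and 403 in fra (151 in replicate 1 and 259 in replicate 2). RNA binding genes had 3 of 37 (8.11%), and 3 of the 19 of 20 kb or more (15.8%), namely mbl with 6 and the translational repressor genes pum and brat with 5 each. Cytoskeleton and muscle genes had 1 of 46 (2.17%), sick, and 1 of the 19 of 20 kb or more (5.26%). Ion channel and synapse genes had 1 of 45 (2.22%), rg. The channel and synapse genes are also long, with a median of 36.6 kb, and 1 of the 31 of 20 kb or more was a multi-summit gene (3.23%).

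Some genes longer than most multi-summit genes held no summit. The 5 longest protein-coding genes with no summit were Myo81F (1966 kb), Pzl (709 kb), lovit (434 kb), CG17684 (396 kb) and DIP-lambda (379 kb). All but DIP-lambda are longer than kirre. Myo81F held 1 region of the pooled candidate list and the other 4 held none, beside a median of 28 (8 to 107) in the multi-summit genes. The pooled candidate list thus had nearly no region in these 5 genes at any rank. Exons covered from 0.332% (Myo81F) to 0.915% (Pzl) of them, against a median of 15.3% of a multi-summit gene. Whether regions can be called in them was not tested. By contrast bru3, for an RNA binding protein and chosen after its values were seen, is 281 kb long and held 34 candidate regions, none of them in the optimal list.

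By chromosome arm, multi-summit genes were 25 of 2196 genes on the X (1.14%), 19 of 2657 on 2L (0.715%), 18 of 2739 on 3L (0.657%), 17 of 2852 on 2R (0.596%) and 18 of 3421 on 3R (0.526%). None of the 80 genes of arm 4 was among them. Gene length was not compared between arms, and the differences between these shares were not tested. The genes on the X included 5 of the 12 with the most summits, kirre, CG1677, Tlk, Raf and CHES-1-like.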

How the data were processed

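Chromatin was sonicated, with fragments of 200 to 800 bp, per the labels. Per the file descriptions, the authors made the region lists from alignments of each library, or of both pooled, with a control alignment, and thresholded the optimal list on the irreproducible discovery rate. Neither aligner nor peak caller is given in the sources used here. The deposited signal value has no stated scale and was compared within a list only. Per the file descriptions, summits are deposited as another column, an offset in bp from the region start.

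Gene models came from Ensembl release 115 (BDGP6.54) and sequence from genome release 6. Coordinates are 1-based dm6. The replicate value of a summit is the highest signal of a candidate region of that replicate overlapping its region by 1 bp or more. Locations were assigned in the order promoter, coding exon, UTR, intron. Words were searched within 50 bp of the summit, beside 1323171 windows tiled over the arms. Of 326 listed symbols, 5 matched no gene. The counting code was tested on simulated data. Python 3.11.15, pandas 2.3.3, numpy 2.4.6 and scipy 1.17.1 were used.

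The genes named are the 12 with the most summits, 5 each by density, length (both ends) and strongest signal (both ends), the 5 longest genes without a summit and up to 3 per list; further genes were named after their values were seen. Members and lists were chosen with earlier results of these data known. Alternatives covered each replicate alone, the signal, the number of summits, their merging, the gene window, other genes' starts, gene biotype and the overlap.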

Additional observations from a re-analysis of the deposited data

How the results depend on the processing

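Of 73 values over 8 results and 10 alternatives, 29 moved past a tolerance and 44 did not. The tolerance was 1.5 times for the number of genes, the exact binomial interval for shares, and for the rest the SD of the 2 values with either replicate alone, which was narrow for spacing. The rank correlation does not use the required number of summits and cannot move with it. The number of genes, 97, was 103 to 111 with either replicate alone, 19 with the stronger 50% of the summits, 195 with 4 or more 61 with 6 or more summits required and 120 with 1 kb added on either side. Median length, 53.3 kb, was 41.0 to 48.4 kb with either replicate alone, 66.0 kb with the stronger 50%, 39.8 kb with 4 or more, 64.3 kb with 6 or more and 59.5 kb with summits under 500 bp apart counted once. Median density was 1.33 to 1.58 per 10 kb with either replicate alone. Spearman's rho of number with length over genes with a summit, 0.495, was 0.409 with the stronger 50%, 0.524 with close summits counted once, 0.451 with 1 kb added on either side and 0.457 without summits at other genes' starts. Median spacing, 3082 bp, was 2622 to 2679 bp with either replicate alone, 2952 bp with the stronger 50%, 2962 bp with 4 or more, 3012.5 bp with 6 or more, 3997 bp with close summits counted once, 3207 bp with 1 kb added and 3204.5 bp with all gene biotypes. Median signal, 167, was 78.2 to 97.4 on the lists of single replicates, which have their own scale, and 263 with the stronger 50%. The share strong in both replicates, 64.3%, was 89.6% with the stronger 50% and 58.3% where 50% of the region had to overlap. The promoter share, 13.1%, was 13.1 to 20.6% with either replicate alone, 10.4% with the stronger 50% and 18.7% with 1 kb added. The cause of these shifts was not tested.

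No paired analysis was possible because the libraries form 1 group and no test was made. Replicate 1 alone kept 73 and replicate 2 alone 65 of the 97 genes. Either replicate alone also gained 38 genes from outside the 97. The sets of the single replicates shared 57 genes, 49 of them among the 97. Read depth is unknown, so it cannot be said how many weaker summits deeper sequencing would add. Intervals cover the counting of summits only.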
